A study of Arabidopsis thaliana with 6 samples.

Results

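The microRNA (miRNA) genes of Arabidopsis thaliana were set against the domains enriched in monomethylated lysine 27 of histone H3 (H3K27me1) and in methylated cytosine (5mC). The members are all genes of biotype miRNA on chromosomes 1 to 5 in RefSeq's annotation of TAIR10.1, or 326 of the 37899 genes there, in 215 families by the number in their symbol. The material was young leaves of the reference accession Col-0, grown in soil in short days, with no mutant and no treatment. The labels name 2 H3K27me1 chromatin immunoprecipitation samples, 2 samples of immunoprecipitated methylated DNA and 2 input samples of the latter. The deposited data are 1 list of enriched domains per mark, with 13068 H3K27me1 and 12238 5mC domains. The lists hold no value per replicate, so that no replicate error and no test between groups of genes could be computed. Counts and shares below describe 1 list per mark, and differences between groups of genes were not tested.

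A miRNA gene is transcribed by RNA polymerase II into a precursor that folds back into a hairpin, from which the Dicer-like enzyme DCL1 cuts the short RNA that guides an ARGONAUTE protein to matching messenger RNAs. Some families, such as miR156 and miR166, are shared by flowering plants and control developmental regulators. Many other loci are young and found in few species, and some of them lie in sequence derived from transposons, which plants keep silent with 5mC and with H3K27me1, a mark placed by ATXR5 and ATXR6.

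Most miRNA genes lay outside both lists. In 273 of the 326 genes, no base was in a domain of either mark. A gene was counted as covered by a mark if at least 50% of its annotated length lay in domains of that mark. By this measure H3K27me1 covered 31 miRNA genes (9.51%), 5mC covered 35 (10.7%), and 25 had both. Over all genes of the table the shares were 15.7% for H3K27me1, 13.0% for 5mC and 11.4% for both. These include pseudogenes, with 72.4%, 72.1% and 68.0% in the same order. Protein-coding genes had 7.62%, 3.69% and 2.79%, lower than miRNA genes for each mark over all 5 chromosomes. On the chromosome arms alone the order differed for H3K27me1, which covered 5.34% of miRNA genes and 6.14% of protein-coding genes. For 5mC the arm shares were 6.05% and 1.85%. Over all 5 chromosomes the shares were 7.93%, 7.79% and 4.83% for long non-coding RNA genes and 0.32%, 4.96% and 0.32% for tRNA genes. The median coverage was 0% for both marks, among miRNA genes and among all genes alike. A base in a domain was found in 32 miRNA genes for H3K27me1 and in 47 for 5mC. Any such contact was found in 27.8% and 23.1% of all genes, which are longer (median 1796 bp, against 144.5 bp for miRNA genes).

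Since domains come in steps of 300 bp for H3K27me1 and 150 bp for 5mC, a miRNA gene was mostly either inside a domain or outside it. Of the 31 genes covered by H3K27me1, 27 lay in a domain over their whole length, and of the 35 covered by 5mC, 29 did. The gene closest above the limit for H3K27me1 was MIR5638a (57.9%), and the closest below was MIR5655 (7.07%). For 5mC these were MIR855 (64.0%) and MIR5645c (46.9%). Coverage by both marks made up 80.6% of the H3K27me1-covered and 71.4% of the 5mC-covered miRNA genes. Over all genes the corresponding shares were 72.1% and 87.5%.

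The miRNA genes were divided by family. The conserved group held 97 genes in 28 families shared among flowering plants. A list of 12 young loci known from transposon sequence (MIR401, MIR405a, MIR405b, MIR405d, MIR407, MIR416, MIR854a to MIR854e and MIR855) formed the second group. The other 217 genes were split by family number, which follows the order of entry into the miRBase catalogue, into 86 genes with numbers under 1000 and 131 genes with numbers of 1000 or over. Median gene lengths were 125 bp, 221 bp, 184 bp and 146 bp in this order.

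Genes of conserved families were nearly free of both marks. None of the 97 had a base in a 5mC domain, and 2 had a base in an H3K27me1 domain. These were MIR156h and MIR156j, 2 of the 10 genes for miR156, which represses SPL transcription factors and so holds plants in the juvenile phase. On the chromosome arms, where 93 of the conserved genes lie, the share covered by H3K27me1 was 2.15%, against 7.28% of all 31100 arm genes. The 5mC share was 0%, against 3.75% of all arm genes. All arm genes include pseudogenes. Arm protein-coding genes had 6.14% (H3K27me1) and 1.85% (5mC), and arm snoRNA genes 0% for each mark. Arm genes of the other families with numbers under 1000 had 2.53% and 1.27%, so that low shares were not particular to conserved families. With so few genes per miRNA group, single loci decide the shares of these groups.

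MIR156h lay over its whole length of 106 bp in a domain of 1 window, on chromosome 5 from 22596901 to 22597200 (TAIR10). The domain held 138 reads, or 460.0 reads per kb, close to the median of the H3K27me1 list (446.7 reads per kb). The 5mC domain nearest to MIR156h was 3984 bp away. MIR156j lay over 68 bp in a domain of 600 bp on chromosome 2 from 17588701 to 17589300, with 345.0 reads per kb, a density above that of only 10.2% of the list. Its position is inside SPL9, a transcription factor gene that miR156 targets, and 47.9% of SPL9 was in H3K27me1 domains, with no base of it under 5mC. Since the positions overlap, the signal of MIR156j and that of its own target gene cannot be told apart. The other 8 genes of the family, MIR156a to MIR156g and MIR156i, had no base in either list.

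Domain coverage around conserved genes was lowest close to the genes and rose with distance. Within 500 bp of the centre of a conserved gene, H3K27me1 domains covered 0.966% of bases and 5mC domains 0%. At 4 to 6 kb from the centre these values were 5.39% and 4.42%, and at 9 to 10 kb 8.63% and 6.47%. Around arm protein-coding genes they were 9.29% (H3K27me1) and 3.43% (5mC) within 500 bp, and 6.34% and 3.89% at 4 to 6 kb. Around the other miRNA genes with numbers under 1000 they were 2.77% and 2.25%, and 5.94% and 6.08%. Lower values near the gene were thus not particular to conserved families. Around genes with numbers of 1000 or over they were 12.3% and 17.4%, and 14.5% and 12.3%. Of the 97 genes, 6 (6.19%) had an H3K27me1 domain within 1 kb, and 5 (5.15%) had a 5mC domain. Among all arm genes, which are longer (median 1835 bp), these shares were 31.6% and 23.9%. Among the short RNA genes of the arms they were 14.3% and 21.1% for tRNA and 15.02% and 10.3% for snoRNA genes. The nearest 5mC domain to any conserved gene was 420 bp from MIR408, a regulator of copper proteins, and the nearest H3K27me1 domain outside the miR156 genes was 445 bp from MIR171a, which acts on GRAS regulators of the meristem. The median distance to the nearest domain was 5907 bp for H3K27me1 and 5773 bp for 5mC. For all genes of the arms the medians were 3246 bp and 4979 bp. For the short RNA genes of the arms they were 6352 bp and 4610 bp for tRNA and 4669 bp and 5380 bp for snoRNA genes. Conserved genes were thus closer to H3K27me1 domains than tRNA genes by the median, and farther from 5mC domains.

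The conserved genes in pericentromeres were free of domains as well. These 4 genes, taken up after their values were seen, were MIR396a, MIR396b, MIR397a and MIR164c. None had a base in either list, with the nearest domain of any mark between 1423 bp (5mC, MIR396a) and 11150 bp (H3K27me1, MIR397a) away. Of all 6799 genes in pericentromeres, H3K27me1 covered 54.4% and 5mC 55.2%, and 54.2% touch or are a pseudogene. Of the protein-coding genes there, 22.5% and 22.3% were covered.

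**Figure D1:**
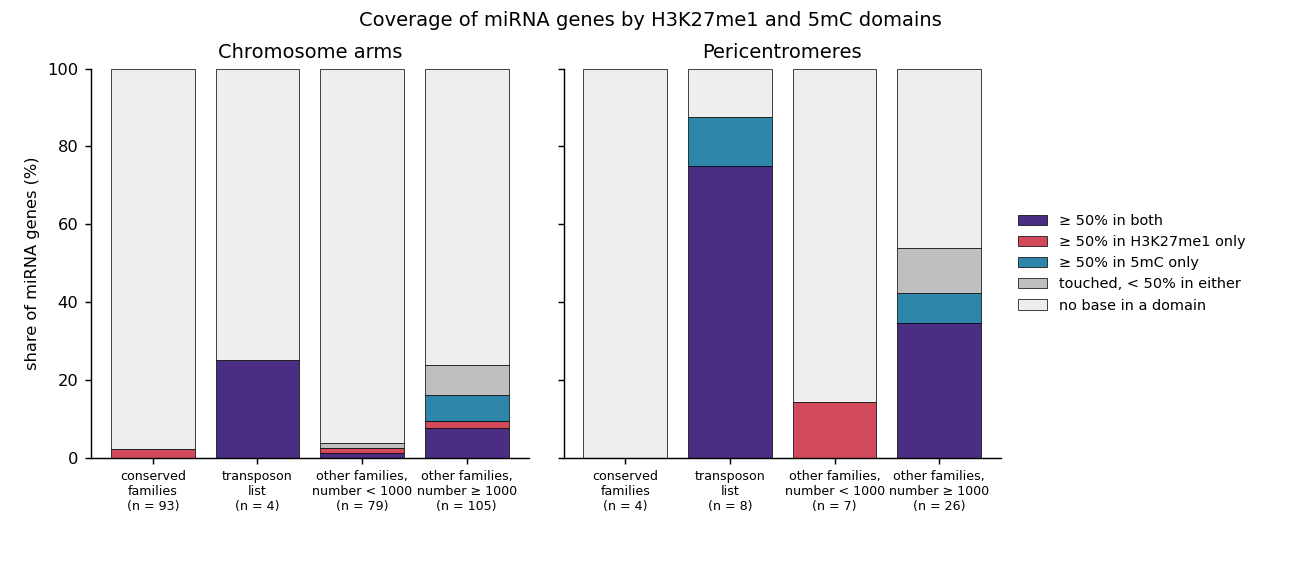
Share of miRNA genes (%, vertical axis) in each coverage class, for the 4 groups of families, on the chromosome arms (left) and in pericentromeres (right); n is the number of genes in a bar. Conserved families have no gene with 5mC in either region, and 6 of the 8 pericentromeric genes of the transposon list are covered by both marks.

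Loci known from transposon sequence lay mostly inside domains. Of the 12 listed genes, 7 were covered by both marks, each over 100% of its length, and 1 by 5mC alone. Of the 12 genes, 8 lie in pericentromeres, where 50.4% of all genes and 78.5% of pseudogenes had both marks, and 6 of these 8 had both. On the arms 1 of 4 had both, beside 2.81% of all arm genes. The parts of location and of transposon origin in these counts were not tested. The group includes the 5 MIR854 genes, which lie in Athila retrotransposon sequence, and MIR401 and MIR416. MIR855 had 64.0% of its length in a 5mC domain of 300 bp and no base in H3K27me1 domains. Counted by family, 3 of the 6 families had both marks.

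The 5 MIR854 genes occupied a stretch of 618.3 kb in the pericentromere of chromosome 5. The stretch held 114 pseudogenes, a biotype under which the annotation also lists transposon loci, and 8 protein-coding genes. H3K27me1 domains covered 83.8% of it and 5mC domains 75.9%. MIR854a and MIR854c lay in the same H3K27me1 domain, from 11803501 to 11925600, and in the same 5mC domain, from 11830651 to 11858250. MIR854b, MIR854d and MIR854e lay in H3K27me1 domains of 6600 bp, 12900 bp and 31500 bp.

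The H3K27me1 density of these 4 domains was between 1151 and 1716 reads per kb, within the top percent of the list. The 5mC domains held between 2569 and 3624 reads per kb. The only other miRNA genes in the stretch, MIR5643a and MIR5643b, were covered by both marks as well. They had 100% of their 83 bp in H3K27me1 domains, and 100% and 86.7% in 5mC domains. How reads that match several copies were placed is not given in the sources used here, so the 5 copies are not independent observations.

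**Figure D2:**
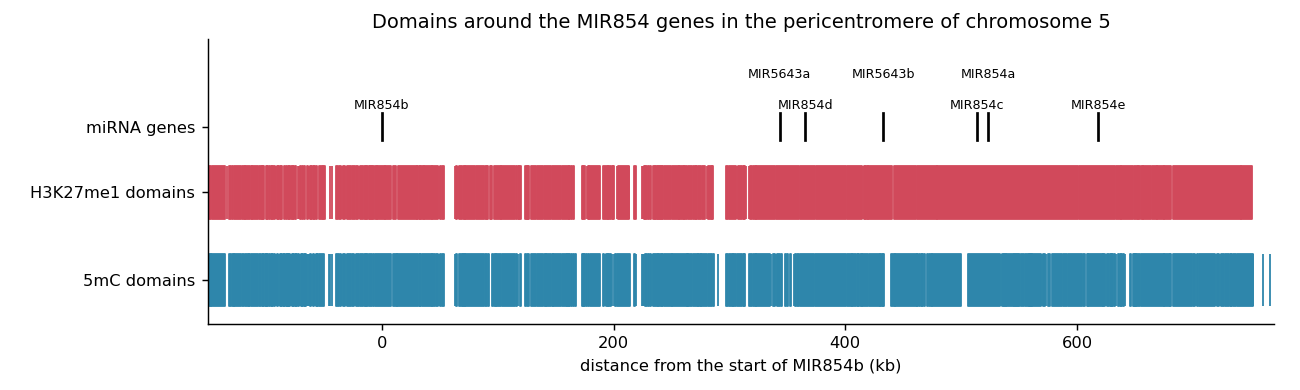
Domains of H3K27me1 (upper bars) and 5mC (lower bars) and the miRNA genes (ticks) around the MIR854 genes on chromosome 5; the horizontal axis gives the distance from the start of MIR854b in kb. All 7 miRNA genes of the 618.3 kb stretch lie in domains of both marks.

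MIR401 and MIR416 lay in long domains as well. MIR401, in the pericentromere of chromosome 4, was inside an H3K27me1 domain of 5700 bp and a 5mC domain of 8850 bp. MIR416, on chromosome 2, was inside an H3K27me1 domain from 7005301 to 7008900 and a 5mC domain from 7005151 to 7019550. It counts as an arm gene, but its H3K27me1 domain begins 5.30 kb beyond the edge of the pericentromere.

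The 3 genes of MIR405 and MIR407 had no base in a domain. All 3 MIR405 genes nevertheless had a 5mC domain within 1 kb, the nearest at 110 bp from MIR405d. Their distances to H3K27me1 domains were 256 bp (MIR405d), 457 bp (MIR405a) and 1514 bp (MIR405b). MIR407 was farther away, with 1855 bp to a 5mC and 3134 bp to an H3K27me1 domain. In all, 11 of the 12 genes had a 5mC domain within 1 kb, beside 34.0% of all genes. These were all 8 in pericentromeres, where 80.1% of all genes had one, and 3 of the 4 on the arms, where 23.9% did.

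**Figure D3:**
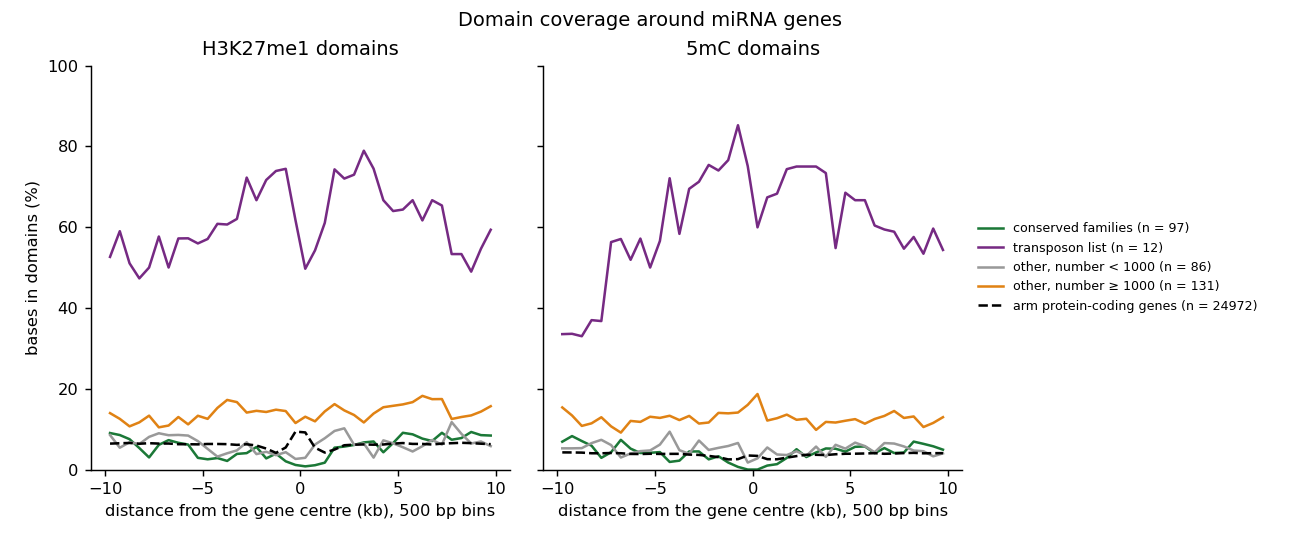
Share of bases in H3K27me1 (left) and 5mC (right) domains (%, vertical axis) in 500 bp bins by distance from the gene centre (kb), for the 4 groups of miRNA genes and, dashed, for arm protein-coding genes; n is the number of genes. Conserved families reach 0% 5mC within 500 bp of the centre, and the transposon list stays at or above 33.0% throughout.

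Contact with an annotated pseudogene gave a second grouping, which overlaps the transposon list in 6 genes. Only 13 miRNA genes overlapped a pseudogene, and H3K27me1 covered 8 of them (61.5%), 5mC covered 7 (53.8%), and 7 had both. Among all pseudogenes the shares were higher, with 72.4%, 72.1% and 68.0%. In pericentromeres H3K27me1 covered 7 and 5mC 6 of 8 such miRNA genes, and on the arms each mark covered 1 of 5. The 7 genes with both marks were MIR8174 and 6 genes of the transposon list, the 5 MIR854 genes and MIR401. Of the 7 genes in contact that are not on the list, 2 were covered, so that most of the count repeats that of the list. MIR841b, with 476 of its 495 bp in a pseudogene, was fully in an H3K27me1 domain of 2100 bp, and its nearest 5mC domain was 422 bp away. The other 5 genes, MIR825, MIR836, MIR3440b, MIR5018 and MIR8183, had no base in either list, and 4 of them lie on the arms. No conserved gene touched a pseudogene or had one within 1 kb.

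Some genes without a pseudogene nearby were also covered. In pericentromeres, 31 miRNA genes had no pseudogene within 1 kb, and H3K27me1 covered 7 of these (22.6%) and 5mC covered 9 (29.0%). These shares were lower than among all pericentromeric genes, of which 54.2% touch or are a pseudogene. Protein-coding genes there had 22.5% and 22.3%, and long non-coding RNA genes 27.9% and 32.2%. On the arms the counts were 11 (4.198%) and 13 (4.96%) of 262. The share was below that of all arm genes for H3K27me1 (7.28%) and above it for 5mC (3.75%). A transposon fragment that the table does not annotate would not be seen by this measure.

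Families with numbers under 1000 that are neither conserved nor listed were also mostly outside the lists. Of their 86 genes, H3K27me1 covered 3 (3.49%) and 5mC covered 1 (1.16%), beside 15.7% and 13.0% of all genes. On the arms the shares were 2.53% and 1.27%, beside 7.28% and 3.75% of all arm genes. Conserved genes of the arms had 2.15% and 0%, close to these values. MIR776 had both marks over its whole length of 118 bp, in domains of 600 bp (H3K27me1) and 750 bp (5mC). MIR843 had 99.0% in an H3K27me1 domain of 1 window and 25.9% in a 5mC domain. MIR841b, described above, had H3K27me1 alone. MIR406 had 13.5% of its length in a 5mC domain, below the limit.

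The genes with numbers of 1000 or over held most of the marked loci. Of these 131 genes, H3K27me1 covered 19 (14.5%), 5mC covered 26 (19.8%), and 17 had both. On the arms the counts were 10 and 15 of 105, or 9.52% and 14.3%, beside 7.28% and 3.75% of all arm genes. In pericentromeres they were 9 and 11 of 26, or 34.6% and 42.3%. This is below the 54.4% and 55.2% of all genes there, and above the 22.5% and 22.3% of protein-coding genes there. For all miRNA genes of the arms the shares were 5.34% (H3K27me1) and 6.05% (5mC), and 10 of the 281 had both, beside 2.81% of all arm genes. Other short RNA genes of the arms gave different values, with 0 of 579 tRNA genes covered by H3K27me1 and 18 by 5mC, and 0 of 273 snoRNA genes covered by either.

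Among the genes covered by both marks, those in the densest H3K27me1 domains were MIR5642a and MIR5642b. MIR5642a, on chromosome 3, lay in an H3K27me1 domain from 14171401 to 14209200 with 4676 reads per kb, the fifth densest of the list, and in a 5mC domain with 31562 reads per kb, ranked 2 in its list. MIR5642b, at the beginning of chromosome 2, lay in an H3K27me1 domain from 901 to 38700 with 3016 reads per kb and a 5mC domain with 11353 reads per kb. Each of the 4 domains also held 2 of the 4 ribosomal RNA genes in the table. Ribosomal RNA genes are repeated many times in the genome but are represented by few copies in the assembly, so read density there can count reads from other copies.

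Beyond these and the chromosome 5 stretch, the list of densest domains included MIR8174, MIR4239, MIR5639 and MIR5029. MIR8174 on chromosome 3 lay in domains of 6900 bp (H3K27me1, 779.6 reads per kb) and 5400 bp (5mC, 3396 reads per kb). MIR4239, on the arm of chromosome 4, was inside domains of both marks with the same borders, from 11363401 to 11369400. MIR5639 lay inside the coding gene AT2G24340, of which 51.0% was in H3K27me1 and 68.5% in 5mC domains. MIR5029 lay in the pericentromere of chromosome 5, in domains of 5700 bp (H3K27me1) and 5850 bp (5mC).

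Genes covered by a single mark lay in narrower domains, with fewer reads per kb by the median, than genes with both. The 24 H3K27me1 domains that hold genes with both marks had a median width of 4800 bp and a median of 709.2 reads per kb. The 6 domains of genes with H3K27me1 alone had 450 bp and 398.1 reads per kb, beside 600 bp and 446.7 reads per kb over the whole list. For 5mC, the 24 domains of genes with both marks had 3150 bp and 1492 reads per kb. The 10 domains of genes with 5mC alone had 525 bp and 790.8 reads per kb, beside 450 bp and 1073 reads per kb over the whole list. Densities are set side by side within a list only. Location differs between the groups, as 10 of the 25 genes with both marks lie on the arms. Of the genes with H3K27me1 alone 5 of 6 do, and of those with 5mC alone 7 of 10. The set with both marks also includes the chromosome 5 stretch and the MIR5642 domains with ribosomal RNA genes. The part of location in these medians was not tested.

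**Figure D4:**
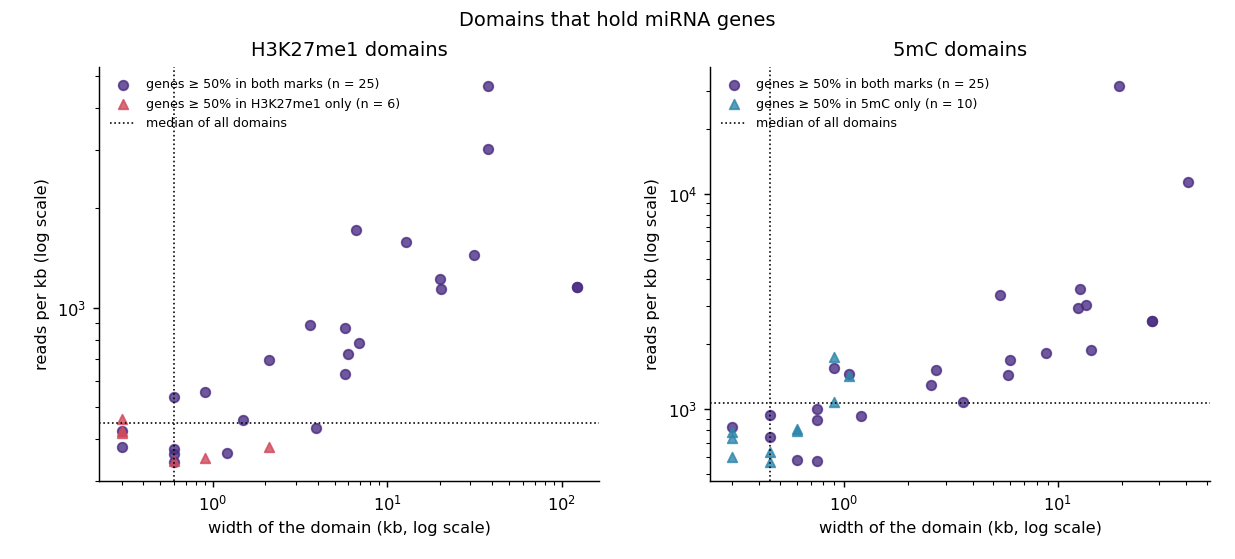
Width (kb, log scale) and read density (reads per kb, log scale) of the H3K27me1 (left) and 5mC (right) domains that hold covered miRNA genes, 1 point per gene; dotted lines mark the medians of all domains of the list. Genes with both marks reach domains of up to 122100 bp, whereas genes with 5mC alone lie in domains of at most 1050 bp.

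On the arms, 5 miRNA genes had a base in H3K27me1 and none in 5mC domains. Besides MIR156h and MIR156j these were MIR5635c (100%, in a domain of 300 bp with 125 reads), MIR5661 (100%, in a domain of 900 bp) and MIR5655 (7.07%). MIR5661 lies inside the coding gene AT4G19080, of which 76.7% was in H3K27me1 and 29.5% in 5mC domains. MIR5655 overlaps AT2G45930, of which 59.1% was in H3K27me1 domains.

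Genes with 5mC and no H3K27me1 were more numerous on the arms. By the 50% limit, 7 of the 281 arm miRNA genes (2.49%) were covered by 5mC only, and 5 (1.78%) by H3K27me1 only. Among all arm genes the order was the reverse, with 0.936% covered by 5mC only and 4.47% by H3K27me1 only. The 8 arm miRNA genes with the largest share in 5mC and no H3K27me1 are named here. MIR5653, MIR8172, MIR2933b, MIR8167b, MIR8167c and MIR8167e were fully inside 5mC domains, and MIR5635a had 89.6% and MIR8165 45.3% of its length there. Among the domains of these 8 genes, the densest, at MIR5653, had 1742 reads per kb over 900 bp, and that at MIR8172 had 1426 reads per kb over 1050 bp. In pericentromeres, MIR8168 (100%) and MIR5645f (84.0%) also had 5mC alone. The domain at MIR5635a, with 571.1 reads per kb, was above only 4.55% of the 5mC list.

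Copies differed from each other in a minority of families. Of the 49 families with more than 1 gene, 12 had at least 1 copy in a domain, and in 8 of these the copies fell into different coverage classes. In the rest of the 49, no copy had a base in a domain. The 4 uniform families, MIR854, MIR5638, MIR5642 and MIR5643, had all copies covered by both marks. Among 23 conserved families with more than 1 gene, only MIR156 had a copy in a domain.

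The 6 MIR8167 genes, each 75 bp long and all on the arms, were all touched by 5mC and none by H3K27me1, and they fell into different classes only through the 50% limit. Coverage was 100% for MIR8167b, MIR8167c and MIR8167e, 41.3% for MIR8167d, 16.0% for MIR8167f and 8.00% for MIR8167a. The domains were 150 to 900 bp wide. The 6 MIR5645 genes were likewise without H3K27me1, with 84.0% in 5mC for MIR5645f, 46.9% for MIR5645c, 26.3% for MIR5645b and 0% for the other copies.

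The 4 MIR5635 genes fell into 4 classes. MIR5635b was covered by H3K27me1 (65.4%) and 5mC (100%), MIR5635c by H3K27me1 alone (100%) and MIR5635a by 5mC alone (89.6%), while MIR5635d had neither. MIR2933a had both marks over its whole length and MIR2933b had 5mC alone. MIR3932b had 79.3% in H3K27me1 and 100% in 5mC domains, and MIR3932a had neither, although an H3K27me1 domain lay 100 bp from it. MIR5638a and MIR5638b had 90.1% and 88.3% in 5mC domains, with 57.9% and 100% in H3K27me1 domains.

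**Figure D5:**
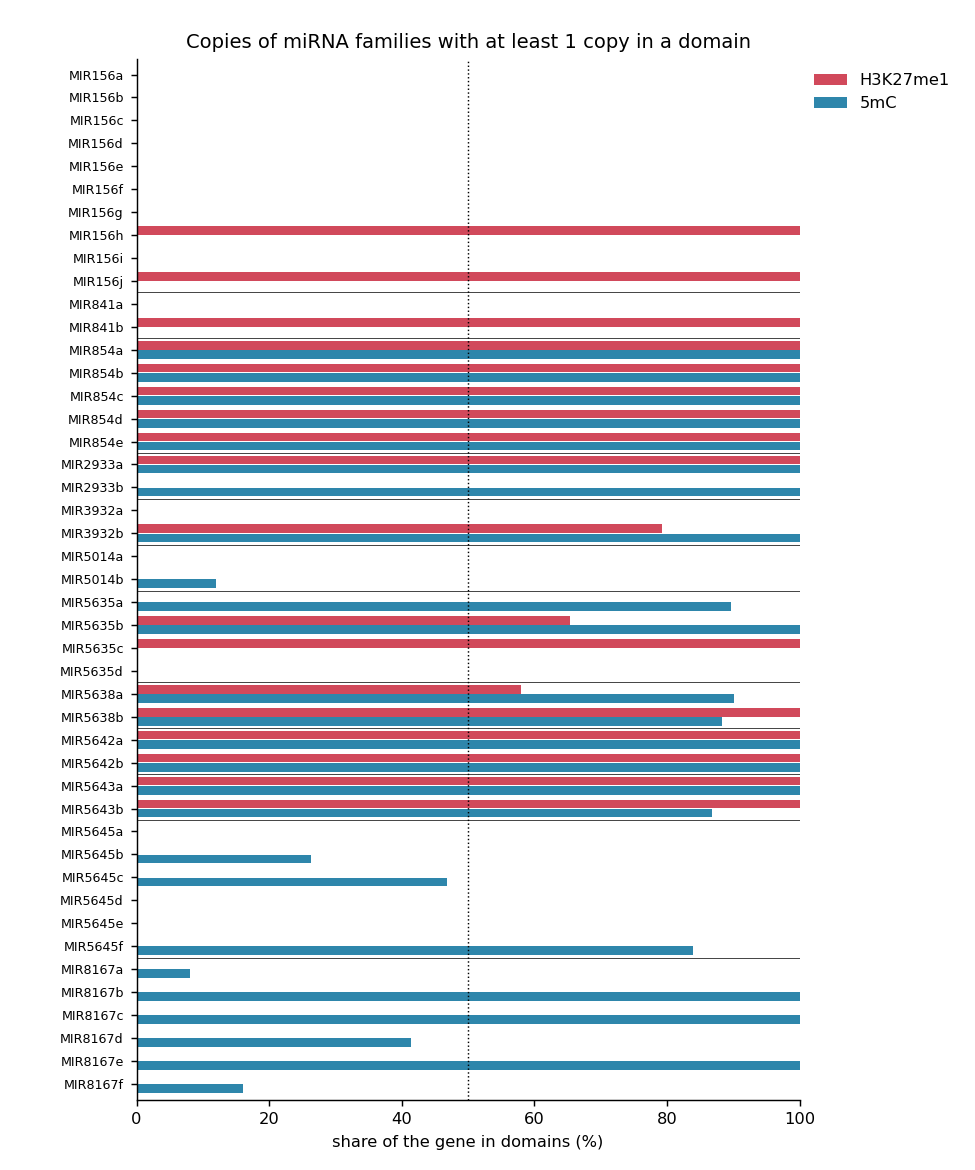
Share of each gene in H3K27me1 (red) and 5mC (blue) domains (%, horizontal axis) for all copies of the 12 miRNA families that have more than 1 gene and at least 1 copy in a domain; thin lines separate families and the dotted line marks 50%. All MIR854 copies reach 100% in both marks, and the 6 MIR8167 copies have 5mC only.

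The marked genes were spread over all chromosomes. Covered genes numbered 3 (H3K27me1) and 4 (5mC) of 89 on chromosome 1, 8 and 9 of 55 on chromosome 2, and 4 and 6 of 50 on chromosome 3. On chromosome 4 they were 6 and 4 of 55, and on chromosome 5, which holds the MIR854 stretch and 15 of the 45 pericentromeric miRNA genes, 10 and 12 of 77.

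Of the 326 miRNA genes, 89 overlapped a protein-coding gene, and the domain of a host gene did not always reach the miRNA gene. A domain touched 11 of the 89 miRNA genes. The other 78 (87.6%) had no base in a domain, beside 83.7% of all miRNA genes. For 21 of these 78, the host gene had a domain elsewhere, and for 57 it had none. Among all protein-coding genes, 69.0% had no base in a domain, so that these counts lay near the background. MIR838, which lies inside DCL1, had no base in either list although DCL1 had 27.8% of its length in 5mC domains, with the nearest 5mC domain 545 bp from MIR838. MIR837 lay inside the transporter gene NRT1.9, of which 68.0% was in H3K27me1 domains, and was itself 277 bp from the nearest H3K27me1 domain. MIR862, inside the chromatin remodeller gene PKL (5.83% in 5mC), was 1646 bp from a 5mC domain. MIR5646, in contrast, lay with all its 70 bp in domains of both marks inside the transporter gene ABCC13, of which 63.8% was in H3K27me1 and 58.2% in 5mC domains. These examples were chosen after their values were seen, apart from those named above.

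The genes of the miRNA pathway touched a domain about as often as protein-coding genes in general, without regard to length. Longer genes have more room for contact. The pathway genes were 2381 bp (SDN1) to 10096 bp (DCL4) long, beside a median of 2078 bp for protein-coding genes. Of 21 genes that make, stabilise or use small RNAs, 14 had no base in either list, beside 69.0% of all protein-coding genes. These 14 include SE and HEN1, the partner of DCL1 and the methyltransferase that protects the ends of miRNAs. H3K27me1 domains touched 5 and 5mC domains 4. Any contact was found in 22.3% (H3K27me1) and 15.6% (5mC) of all protein-coding genes, and the median coverage was 0% in the list as in all genes. AGO2, an ARGONAUTE of antiviral defence and a target of miR403, had 53.9% in H3K27me1 and 15.4% in 5mC domains. HYL1, the double-stranded RNA binding partner of DCL1, had 22.2% in H3K27me1 domains alone. DCL3, which makes small interfering RNAs from transposons, had 12.04%, and AGO7, the partner of miR390, 7.65%, both without 5mC. The cap-binding protein gene ABH1 had 6.74% and the phosphatase gene CPL1 4.68% in 5mC domains alone. DCL1 had 3.70% in H3K27me1 domains beside its 5mC.

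Some known targets of conserved miRNAs carried domains over part of their length. Of 36 listed targets 35 were matched, and 21 of these had no base in either list. H3K27me1 touched 8 and 5mC 10, with 4 in both. Over all protein-coding genes, 69.0% had no base in a domain and contact was found in 22.3% (H3K27me1) and 15.6% (5mC). The targets thus lay near the background for H3K27me1 and above it for 5mC. Gene length, from 1072 bp (SPL3) to 8107 bp (DCL1) among the targets, was not taken into account. AGO2 alone was covered over 50%, by H3K27me1. Among the class III homeodomain genes that miR165 and miR166 repress to set leaf polarity, PHV had 9.05% and REV 8.63% in 5mC domains, and PHB had 17.9% under H3K27me1 and no 5mC. DNA methylation inside PHB and PHV, downstream of the miRNA site, is known from earlier work. The MIR165 and MIR166 genes themselves had no base in either list.

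Among targets of miR156, SPL9 had 47.9% and SPL3 27.99% in H3K27me1 domains alone, and SPL15 had 8.37% in 5mC domains alone. The auxin response factor genes ARF16, a target of miR160, and ARF6, a target of miR167, carried both marks. ARF16 had 27.4% in H3K27me1 and 22.8% in 5mC domains, and ARF6 17.4% and 11.6%. The boundary gene CUC1, a target of miR164, had 16.4% in H3K27me1 domains. The auxin receptor gene AFB3 (miR393) had 11.8%, the flowering regulator TOE2 (miR172) 7.40% and the phosphate regulator PHO2 (miR399) 2.70% in 5mC domains alone.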

How the data were processed

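Bowtie, SICER and the build TAIR10 are named, per the submitters' processing notes; tool versions, calling thresholds, use of input, handling of multiply matching reads and any pooling were not given in the sources used here. A line of the 2 deposited lists gives a domain and a count of reads, which the values show as whole numbers with no scaling; counts were used as reads per kb within 1 list only. The reads in domains sum to 12706852 (H3K27me1) and 28021211 (5mC), which is not the libraries' depth. File starts count from 0 and positions are printed from 1.

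Genes came from the RefSeq table of TAIR10.1, whose name differs from that of the lists' build. As a check, pseudogenes were shifted by up to 5000 bp in steps of 50 bp, and the overlap with each list was highest at an offset of 0 bp on all 5 chromosomes. No coordinate of the table is printed, and no genome or miRNA sequence was used here. Pericentromeres (27.1 Mb) are runs of 100 kb windows around the lowest protein-coding coverage, averaged over 11 windows, under 0.7 of the chromosome's median. A gene belongs there if more than 50% of it does. Overlaps were counted in bases with Python 3.11.15 and pandas 2.3.3, and the routine was tested on simulated data.

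The members and gene lists were chosen with earlier results of these data known. Named genes are the transposon list, conserved genes in a domain, the 15 genes with both marks in the densest H3K27me1 domains, up to 8 arm genes per mark with that mark alone, the genes next to the 50% limit and listed pathway genes and targets in a domain. Other named genes were added after their values were seen.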

Additional observations from a re-analysis of the deposited data

How the results depend on the processing

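Each count of covered genes was taken again with other settings, and 55 of 81 values stayed within 1.5 times the count reported. No conserved gene was covered by 5mC under any of the 7 settings tried for it, but none of these could give another count. No such gene had a base in a 5mC domain. The nearest 5mC domain lay 420 bp away, too far for the extension by 500 bp to reach 50%. These 7 values are among the 55. Counts are given as H3K27me1, 5mC and both for all miRNA genes (31, 35 and 25 above) and as H3K27me1 and 5mC elsewhere. With domains above the median reads per kb of their list they were 19, 20 and 15 for all and 7 and 9 for the arms; with domains of at least 1000 bp they were 19, 18 and 15, and 6 and 6. With 1 gene per family they were 17, 20 and 15 for all, 3 and 4 for the transposon list and 4 and 3 for genes touching a pseudogene, and the 5mC count of the arms was 11. Any overlap of 1 bp gave 26 arm genes for 5mC. A pseudogene within 1000 bp in place of contact gave 13 and 13, of 33 in place of 13 genes, so that the shares fell from 61.5% and 53.8% to 39.4% each. The 2 conserved genes with H3K27me1 became 1 with denser domains, with genes extended by 500 bp or without genes overlapping a coding gene, and 0 with domains of at least 1000 bp or 1 gene per family. In the settings with fewer domains or genes, part of the lower count follows from their construction; further causes were not tested. No paired analysis was possible because the lists hold no value per replicate. For the same reason no replicate could be left out, and weak enrichment below the unknown calling threshold is not seen.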

Other observations

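MIR845a and MIR845b, which are known to target retrotransposons in pollen, lay far from both marks in leaves. MIR845a was 9533 bp from the nearest H3K27me1 and 20633 bp from the nearest 5mC domain, and MIR845b 12934 bp and 24034 bp. Neither was chosen by the rule for named genes.

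The gene table holds 324 distinct positions for the 326 miRNA genes. MIR5595a and MIR5995b have the same start and end, as do MIR5649a and MIR5649b. None of the 4 had a base in a domain, so that no count of covered genes depends on them.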
